A study of Mus musculus with 10 samples.

Results

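The genes described are 10 that respond to glucocorticoids: Nr3c1, Fkbp5, Tsc22d3, Sgk1, Klf9, Klf15, Zbtb16, Cebpb, Cebpd and Glul. They were taken by name, with every probe set of the array annotated to that gene alone. This gave 31 of 45037 probe sets, for 10 of the 18193 genes measured this way. The RNA came from calf muscle (gastrocnemius) of 5 males deficient in Skn-1 and 5 wild-type males, on 1 Affymetrix mouse array each. Skn-1, also called Pou2f3, is a transcription factor of the POU family on which taste and tuft cells depend. Both genotypes were 12 to 16 weeks old, ate chow and had fasted for 18 h before dissection. The mice carry the strain label mixed 129 x C57BL/6J, and more than 10 generations of crossing to C57BL/6J stood behind the knockout line. No fed mice were analysed here, so all values describe the fasted state, and no hormone level is part of the data used here.

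Glucocorticoids, chiefly corticosterone in mice, rise during fasting and act through the glucocorticoid receptor, a ligand-activated transcription factor encoded by Nr3c1. The receptor waits in the cytoplasm with heat shock proteins and immunophilins, moves to the nucleus with its hormone and binds an inverted repeat known as the glucocorticoid response element. In skeletal muscle its targets take part in the breakdown of protein, the release of amino acids and the restraint of insulin signalling.

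RefSeq promoter sequence (GRCm38.p6) was at hand for 14 promoters of 7 of these genes, and the 250 bases before each start were searched on both strands. The full element, spelled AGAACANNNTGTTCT, occurred in 1 of the 14, a promoter of Sgk1, and in 3 of 32851 promoters in all (0.00913%). The core ACANNNTGT, which lies inside the full element, occurred in 3 of the 14, with 5.84% of all promoters holding it. One arm of the element, TGTTCT on either strand, occurred in 4 of the 14 and in 16.1% of all. Sgk1 alone had 6 of the 14 promoters. Counted by gene, the core and the arm each occurred in 2 of the 7, against 6.76% and 18.2% of all genes. The 3 promoters with a core match are printed because the core is part of the element that the receptor is known to bind. Only the first also holds an arm of the element. Each runs 5′ to 3′ on the plus strand and ends at the base before the start. Capitals mark the full element in the first and the core in the others.
Sgk1, chr10:21993640-21993889: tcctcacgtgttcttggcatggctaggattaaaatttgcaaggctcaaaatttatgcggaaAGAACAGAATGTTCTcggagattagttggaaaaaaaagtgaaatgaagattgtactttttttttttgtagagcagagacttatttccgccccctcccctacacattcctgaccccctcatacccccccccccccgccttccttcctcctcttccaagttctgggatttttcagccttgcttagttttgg
Sgk1, chr10:21978422-21978671: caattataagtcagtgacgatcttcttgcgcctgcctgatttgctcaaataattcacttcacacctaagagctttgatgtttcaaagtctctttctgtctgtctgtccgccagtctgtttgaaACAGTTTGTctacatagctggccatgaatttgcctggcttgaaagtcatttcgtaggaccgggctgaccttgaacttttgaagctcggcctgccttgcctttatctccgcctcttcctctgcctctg
Glul, chr1:153899679-153899928: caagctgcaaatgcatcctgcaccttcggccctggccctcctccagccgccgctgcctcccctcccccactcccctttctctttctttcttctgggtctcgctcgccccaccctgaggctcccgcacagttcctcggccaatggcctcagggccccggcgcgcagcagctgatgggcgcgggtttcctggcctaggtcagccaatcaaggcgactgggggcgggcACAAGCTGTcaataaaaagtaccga
The full Sgk1 match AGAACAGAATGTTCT lay at chr10:21993701-21993715, from 189 to 175 bases before that start and from 965 to 951 bases before the next annotated start of Sgk1. The core match of Glul, ACAAGCTGT, lay 25 to 17 bases before its start, and that of the other Sgk1 promoter, ACAGTTTGT, lay 127 to 119 bases before its start. A match shows that these letters are there, not that the receptor binds them in muscle. No promoter of Zbtb16, Cebpd or Nr3c1 was searched.

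Most of the deposited table hardly moved. An SD over the 10 arrays of no more than 0.01 was found for 86.2% of its probe sets (median 0.000189), and 6209 varied more than that. The values are read as log2 because of their range, the log base being unstated, so every fold here rests on that reading. A difference of a probe set that hardly varies has no readable size and is not given as a fold. Array medians ran from 6.23 to 6.24. The single Pou2f3 probe set was of the hardly varying kind (6.47 on all 10 arrays, SD 0.00026) and is no check of the labels. Skeletal muscle markers averaged 12.07 to 12.28 on all arrays. In 5 arrays, knockouts 1, 4 and 5 and wild types 1 and 3, a marker list of another tissue stood more than 0.5 above the median array.

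The 10 genes were among the moving part of the table. Of their 31 probe sets 22 varied (71.0%), against 13.8% of all probe sets, and each gene had at least 1 that did. That background was not matched for signal level, and 27 of the 31 had a mean above the median of all probe sets. Each gene is described below by the brightest of its varying probe sets. By SD over the 10 arrays these probe sets stood at the 21.4 to 94.2 percentile of all varying ones, with a median percentile of 82.3. Sgk1 and Cebpd varied most and the receptor least. With bulk muscle, fewer cells of a type and less RNA per cell cannot be told apart.

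Nr3c1 encodes the receptor itself. Probe set 1460303_at stood at 9.47, 9.59, 9.56, 9.70 and 9.52 in knockouts 1 to 5. In wild types 1 to 5 it read 9.27, 9.47, 9.43, 9.52 and 9.44. Wild type 1 was the lowest of all and knockout 4 the highest, and the groups overlapped narrowly, since wild type 4 lay above knockouts 1 and 5. The difference was 0.14 ± 0.06 (SE) on the log2 scale, a fold of 1.10 with a 95% interval from 1.01 to 1.20, at an unadjusted p of 0.0364 and an adjusted p of 0.712 in limma. A second probe set of Nr3c1 that varied, 1421867_at, read 8.63, 8.80, 8.79, 8.93 and 8.68 in knockouts and 8.30, 8.59, 8.48, 8.65 and 8.52 in wild types. It followed the first closely over the arrays (r = 0.98) and differed by 0.25 ± 0.08 (SE), a fold of 1.19, with an unadjusted p of 0.00951 and an adjusted p of 0.468 in limma (exact two-sided permutation p = 0.0159). The smallest p that the exact test of 5 against 5 arrays can give is 0.00794. All 6 Nr3c1 probe sets had a higher mean in knockouts and 5 had an unadjusted p under 0.05 in limma, but 4 of the 6 hardly varied and none passed after adjustment. In the 5 arrays without genes of other tissues the 2 differences were 0.10 and 0.20.

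Fkbp5 encodes FKBP51, an immunophilin that lowers the receptor's affinity for its hormone and so acts as a brake on the pathway that induces it. Its values on 1416125_at were 9.69, 10.20, 10.09, 9.52 and 9.76 in knockouts and 9.21, 10.14, 9.49, 9.93 and 9.98 in wild types. High and low arrays were found in both genotypes, and the whole range over 10 arrays spanned 1.98-fold. The genotype difference was 0.10 (95% interval −0.38 to 0.58, limma adjusted p = 0.989). The second varying probe set, 1448231_at, tracked the first (r = 0.91) and ranged from 6.62 in wild type 1 to 7.38 in knockout 2. Another, 1447736_at, hardly varied.

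Tsc22d3, or GILZ, encodes a leucine zipper protein that carries part of the anti-inflammatory action of glucocorticoids. Its brightest varying probe set, 1420772_a_at, read 10.72, 11.62, 11.43, 11.22 and 11.16 in knockouts and 10.49, 11.32, 11.10, 11.34 and 11.20 in wild types. The first array of each genotype lay well below the other 4, and knockout 2 was the highest. The range was 2.19-fold, while the genotypes differed by 0.14 (95% interval −0.35 to 0.62, limma adjusted p = 0.983). The second varying probe set, 1425281_a_at, had r = 0.98 with the first and a range of 2.56-fold, from 9.63 in wild type 1 to 10.98 in knockout 3.

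Sgk1, a serine/threonine kinase related to Akt that regulates ion channels and FoxO factors, had the widest range of the 10 genes at 3.07-fold. On its only probe set, 1416041_at, knockouts 1 to 5 stood at 10.72, 12.25, 11.51, 11.30 and 11.35. Wild types 1 to 5 stood at 10.63, 11.38, 11.44, 11.30 and 11.23. Knockout 2 was high alone, knockout 1 and wild type 1 were low, and the other 7 arrays lay within 11.23 to 11.51. The difference between genotypes, 0.23 ± 0.28 (SE), was smaller than its error (95% interval −0.41 to 0.87, limma adjusted p = 0.972). Without knockout 2 it was 0.024, and without wild type 1 it was 0.088.

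Klf9, an immediate target of the receptor, encodes a Krüppel-like repressor of transcription. Its brightest probe set, 1456341_a_at, read 12.45, 12.55, 12.55, 12.56 and 12.57 in knockouts and 12.15, 12.72, 12.46, 12.65 and 12.45 in wild types. The knockouts lay close together (SD 0.05, n = 5), and both ends of the range, 1.48-fold apart, were wild types. The difference was 0.05 (95% interval −0.17 to 0.27, limma adjusted p = 0.988). Klf9 had 6 varying probe sets, and their correlations with one another ran from 0.16 to 0.96 with a median of 0.72. All 6 were lowest in wild type 1, and 5 were highest in wild type 2. The exception, 1436952_at, peaked in knockout 5 and ranged over 1.95-fold.

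Klf15 drives the breakdown of amino acids in fasted muscle and was read by a single probe set, 1448181_at. It stood at 9.45, 9.49, 9.16, 9.27 and 9.05 in knockouts and at 8.82, 9.54, 8.90, 9.35 and 9.37 in wild types. Wild types 1 and 3 were the lowest and wild type 2 the highest, over a range of 1.65-fold. The difference was 0.09 (95% interval −0.28 to 0.45, limma adjusted p = 0.988).

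Zbtb16 encodes PLZF, a zinc finger repressor and a sensitive transcript of receptor activation in many cell types. With 1439163_at knockouts read 9.66, 9.86, 9.31, 9.68 and 9.44, and wild types read 8.86, 9.56, 8.66, 9.28 and 9.19. Wild types 1 and 3 were far below the rest, and wild type 2 lay inside the knockout range. This was the largest genotype difference among the 10 genes, 0.48 ± 0.18 (SE), a fold of 1.39 with a 95% interval from 1.05 to 1.85. It did not pass adjustment over all probe sets (limma p = 0.0276, adjusted p = 0.661; exact two-sided permutation p = 0.0317). The other varying probe sets of Zbtb16 (1419874_x_at and 1427638_at) differed by 0.15 and 0.31 in the same direction (unadjusted p = 0.300 and 0.0906 in limma). In the 5 arrays without genes of other tissues the difference of the brightest was 0.24, with an unadjusted p of 0.369 in limma.

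Cebpb, a leucine zipper factor of the glucocorticoid and inflammatory responses, read 10.77, 11.02, 10.85, 10.72 and 10.73 in knockouts on 1418901_at. Its wild types read 10.52, 11.09, 10.68, 11.02 and 10.91. Both the highest and the lowest array were wild types, and the difference was −0.03 (95% interval −0.29 to 0.24, limma adjusted p = 1). A second probe set, 1427844_a_at, had r = 0.94 with the first and differed by −0.03 as well.

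Cebpd, its close relative, had 1 varying probe set, 1423233_at. It read 11.92, 12.00, 11.91, 10.98 and 11.50 in knockouts and 11.04, 12.21, 11.71, 12.04 and 12.22 in wild types. Knockout 4 and wild type 1 were the low arrays, and the range was 2.35-fold. The difference of −0.18 had a 95% interval from −0.83 to 0.47 (limma adjusted p = 0.986), the widest of the 10. Without knockout 4 the difference was −0.0069, and without wild type 1 it was −0.38.

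Glul, glutamine synthetase, makes the glutamine that fasted muscle releases. On 1426236_a_at it stood at 11.61, 11.82, 11.79, 11.58 and 11.59 in knockouts and at 11.27, 11.94, 11.59, 11.75 and 11.77 in wild types. Wild type 1 was lowest and wild type 2 highest, 1.60-fold apart, and the genotype means nearly coincided. The difference was 0.01 (95% interval −0.26 to 0.29, limma adjusted p = 1), and the other Glul probe set, 1426235_a_at, differed by −0.0064.

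**Figure D1:**
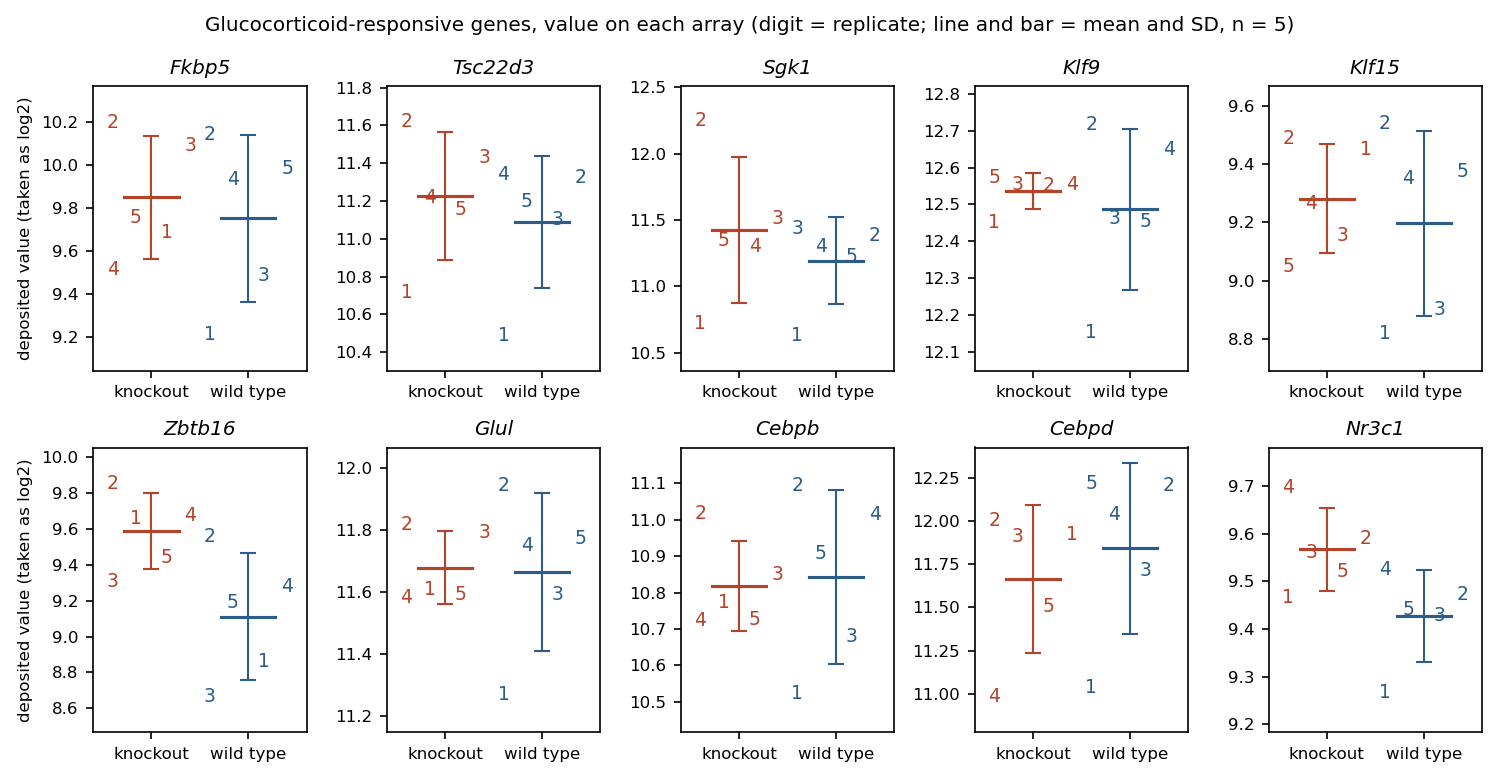
Each panel plots the brightest varying probe set of a gene, with the deposited value (taken as log2) on the vertical axis and the genotypes on the horizontal; digits are replicate numbers at their values, and the line and bar are the mean and SD (n = 5). Wild type 1 is the lowest array in 8 of 10 panels, and knockouts stand mostly above wild types for Zbtb16 and Nr3c1 alone, with overlap.

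Between genotypes none of the 31 probe sets passed the adjusted threshold of 0.05 in limma, against a background of 0.191% of all probe sets and 0.966% of the varying ones. The smallest adjusted p was 0.162 among the 31 and 0.468 among the 22 that varied. At an unadjusted p under 0.05 there were 6 of 31 (6.62% of all probe sets), namely 5 of Nr3c1 and 1 of Zbtb16. Only 3 of these 6 varied, which is 3 of 22 (9.92% of varying probe sets), and all 3 were higher in knockouts (7.44%). No varying probe set separated the genotypes without overlap, against 3.37% of varying probe sets that did so with knockouts higher. Of the 9 that hardly varied, 2 did, both of Nr3c1 (1.14% over all probe sets).

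By direction, 16 of the 22 varying probe sets had a higher mean in knockouts and 6 a lower one, where 49.2% of all varying probe sets were higher. Their median difference was 0.07, beside −0.0021 for all varying probe sets. This lean changed with single arrays, most with wild type 1: without that array 7 of the 22 were higher in knockouts. With any other array left out the count ran from 13 (without wild type 3) to 21 (without wild type 2). Without the 5 arrays with genes of other tissues it was 9 of 22. The share of all varying probe sets in these fits is not given here. Nr3c1 and Zbtb16 kept a higher mean in knockouts whichever array was left out, with differences from 0.10 to 0.17 for Nr3c1 and from 0.37 to 0.59 for Zbtb16.

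**Figure D2:**
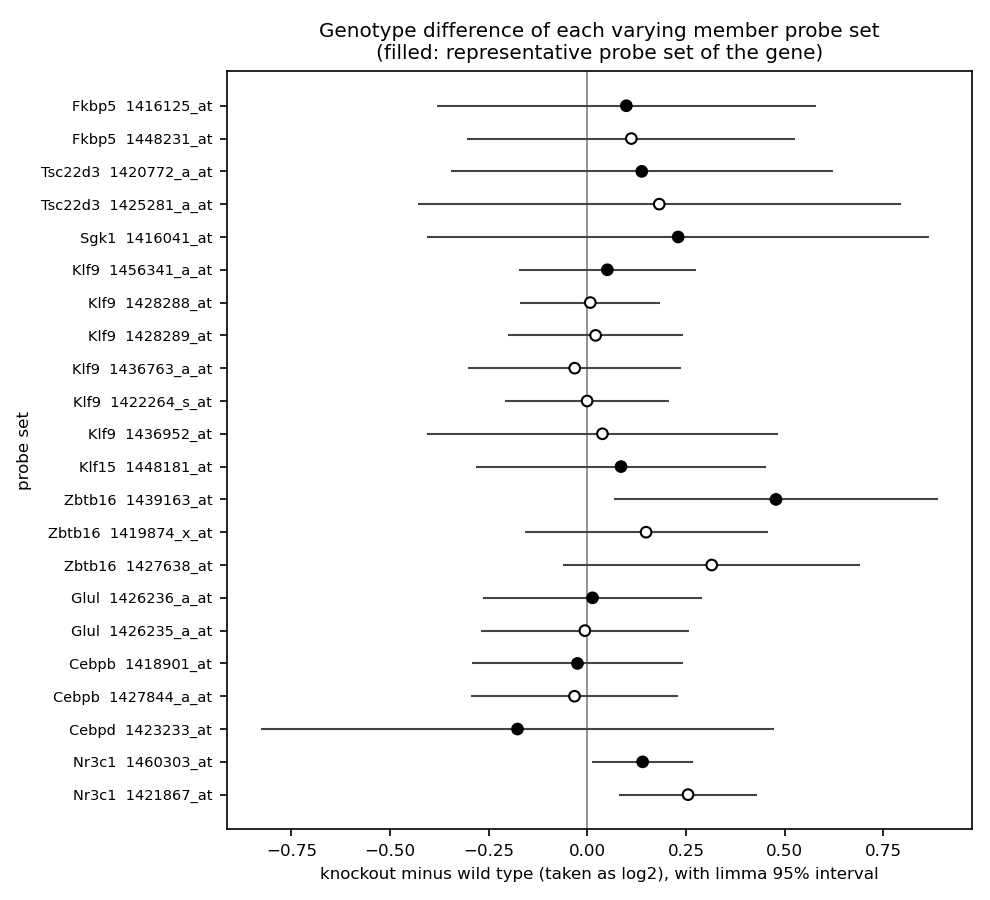
Points give the difference between knockout and wild-type means (horizontal axis, taken as log2) of the 22 varying probe sets listed on the vertical axis, with limma's 95% interval; filled points are the brightest of each gene. Intervals of Zbtb16 (0.48, brightest) and both Nr3c1 probe sets (0.14 and 0.25) lie above 0, and those of the other 19 cross it.

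The 10 genes varied together from array to array. Over the 10 arrays all 45 pairs had a Pearson r above 0, with a median of 0.66 and a range from 0.015 to 0.94. An r above 0.5 was found in 33 pairs (73.3%), against 14.7% of all pairs of varying probe sets, whose median r was 0.01. That background took every varying probe set and was not matched for spread. The 10 brightest probe sets stood at a median SD percentile of 82.3 among them. An r of at least 0.8 was found in 11 pairs (24.4%), against 2.44%. After adjustment over the 45 pairs 18 passed the 0.05 threshold with Pearson's r in a permutation test, and 7 of these 18 with Spearman's rho. For deviations from the genotype means the median was also 0.66.

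Fkbp5 and Glul formed the closest pair. Their r was 0.94 (permutation p = 7e-05, adjusted p = 0.00225) and their rho 0.93 (permutation p = 0.00027, adjusted p = 0.00795). Without the 2 arrays farthest from the Fkbp5 median, wild types 1 and 3, r was 0.91. Cebpb joined them, with r = 0.94 to Glul (permutation p = 1e-04, adjusted p = 0.00225; rho = 0.92, adjusted p = 0.00795). To Fkbp5 it had r = 0.91 (permutation p = 0.00047, adjusted p = 0.00529; rho = 0.93, adjusted p = 0.00795). These r were 0.88 and 0.82 without the 2 farthest arrays. Wild type 1 was at the low end of all 3 genes, with knockout 2 and wild type 2 at the high end.

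Tsc22d3 and Sgk1 formed a second close pair at r = 0.91 (permutation p = 0.00042, adjusted p = 0.00529) but rho = 0.72 (permutation p = 0.0238, adjusted p = 0.0713). Leaving out the first array of each genotype brought r to 0.80. Knockout 2 marked the top of both genes and wild type 1 the bottom, while 7 arrays lay close together. Klf15 went with Cebpb (r = 0.85, permutation adjusted p = 0.0158; rho = 0.87, adjusted p = 0.0214). With Zbtb16 it had r = 0.78 (permutation adjusted p = 0.0228; rho = 0.65, adjusted p = 0.130), and that r was 0.91 for deviations from genotype means. Klf9 and Glul had an r of 0.84 (permutation adjusted p = 0.0217) but a rho of 0.37 (adjusted p = 0.393), and r was 0.24 without wild types 1 and 2, so that relation rested on those arrays. The receptor was in none of the 18 pairs: its highest r was 0.71, with Tsc22d3 (permutation adjusted p = 0.0513), and its lowest 0.015, with Cebpd.

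**Figure D3:**
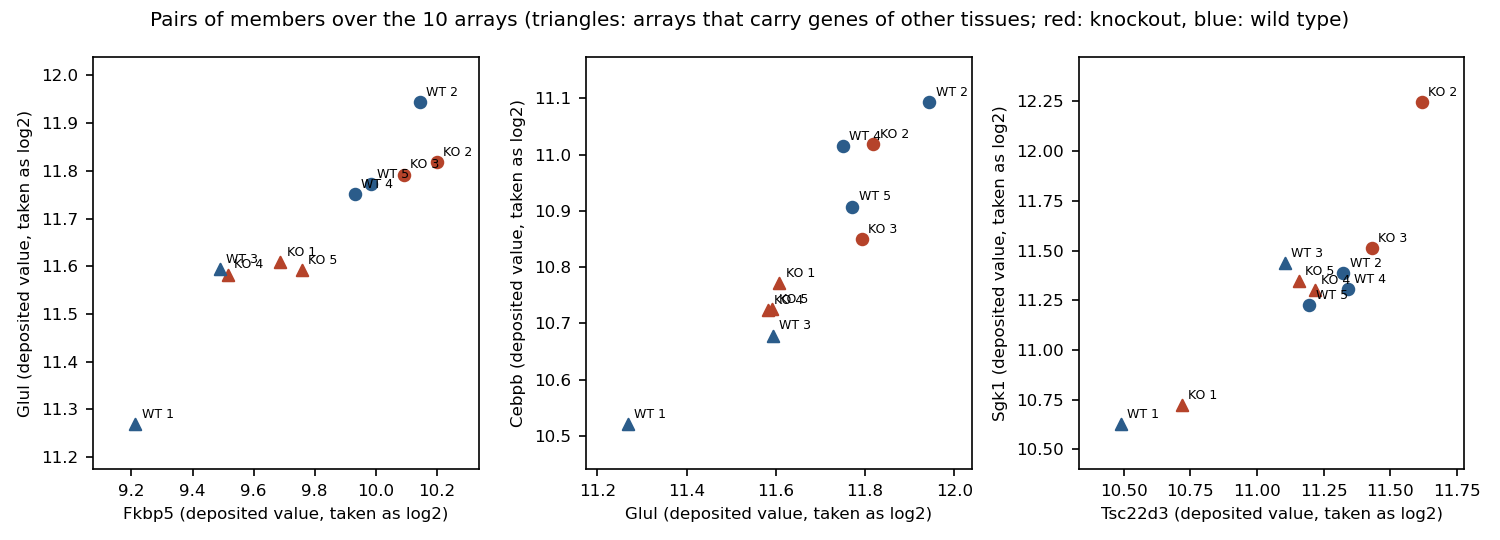
Each panel plots one gene against another over the 10 arrays (deposited values, taken as log2, on both axes), in red for knockouts and blue for wild types, with triangles for arrays that carry genes of other tissues. In the first 2 panels the triangles fill the lower left and the circles the upper right, and in the last wild type 1, knockout 1 and knockout 2 hold the ends.

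Part of this co-variation rested on wild type 1. That array was the lowest in 8 of the 10 genes and among the lowest 3 in all 10, with a median deviation of −0.45 from the gene means. Knockout 2 and wild type 2 were each highest in 4 genes. Without wild type 1 the median r over the 45 pairs was 0.41, with 40 pairs above 0 and 19 above 0.5 (42.2%, where all pairs of varying probe sets gave 14.7%). Then 2 pairs passed the threshold, Fkbp5 with Glul (r = 0.91, exact permutation p = 0.00102, adjusted p = 0.023) and Glul with Cebpb (r = 0.92, exact permutation p = 0.000907, adjusted p = 0.023). Tsc22d3 with Sgk1 kept r = 0.88 but an adjusted p of 0.115 in the same exact permutation test. Cebpd with the receptor turned to r = −0.67 but did not pass (exact permutation adjusted p = 0.220), and its rho was −0.33. With the 2 arrays farthest from the first gene's median left out of each pair, the median r was 0.37.

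**Figure D4:**
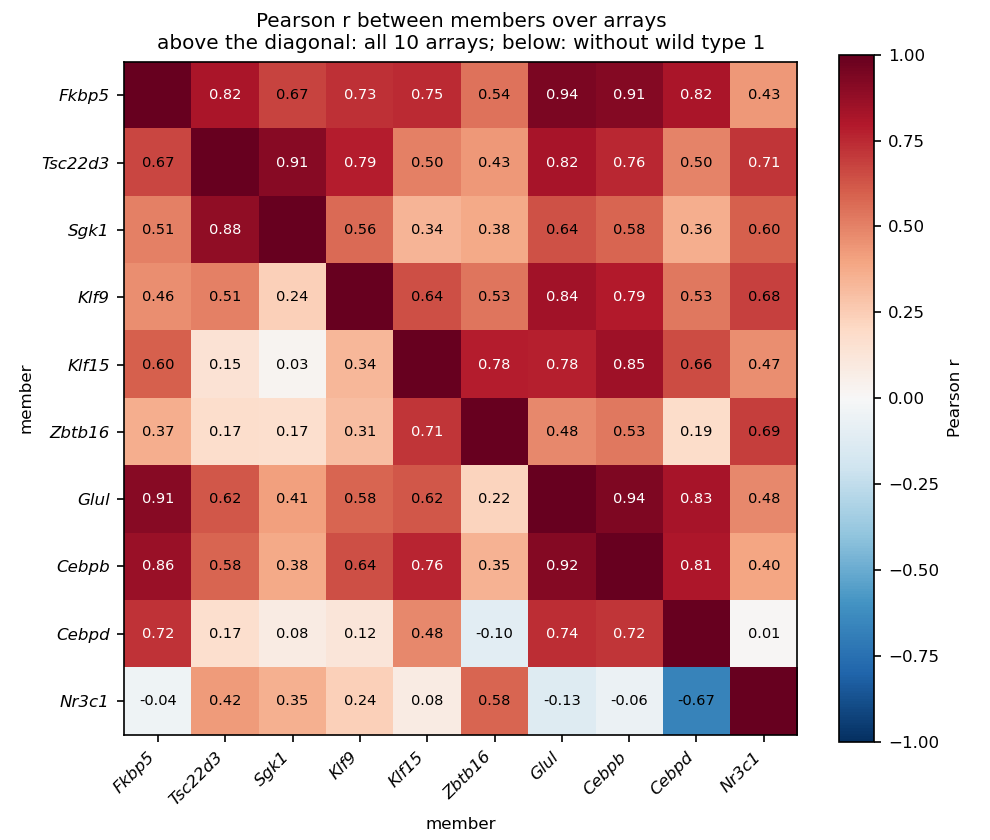
The grid gives Pearson r between the brightest varying probe sets of the 10 genes, over all 10 arrays above the diagonal and without wild type 1 below it (colour scale from −1 to 1). All 45 values above the diagonal exceed 0, and below it the block of Fkbp5, Glul and Cebpb keeps values from 0.86 to 0.92 while the receptor's row falls to between −0.67 and 0.58.

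Levels of most of the 10 genes also moved with the genes of other tissues, those of the receptor least in size. Epidermis and hair genes (12 of 13 measured genes varied) averaged 7.31 in knockout 1, 7.66 in knockout 4, 7.08 in wild type 1 and 7.05 in wild type 3, against 5.97 to 6.01 in the other 6 arrays. Lymphocyte genes (8 of 10) averaged 7.89 in knockout 5 and in wild type 3 and 6.12 to 6.31 elsewhere. All 22 varying probe sets of the 10 genes had a higher mean in the 5 arrays without such genes, where 48.5% of all varying probe sets did. The difference was smallest for Nr3c1, 0.04 on 1460303_at and 0.06 on 1421867_at, below their SD over the 10 arrays (0.11 and 0.18). The receptor was not alone in this. Every varying Zbtb16 probe set differed by less than its SD (0.18, 0.19 and 0.11 against 0.37, 0.22 and 0.30). So did some of Klf9, among them its brightest (0.146 against 0.152). The brightest of Nr3c1 also had the smallest SD among those of the 10 genes. Wild type 1, the lowest array in 8 of the 10 genes, was among those with such genes, and the split is not given without it.

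For 4 of the 22 these sets of arrays did not overlap, against 1.63% of varying probe sets: the brightest of Fkbp5 (9.93 to 10.20 without, 9.21 to 9.76 with), that of Glul (11.75 to 11.94 without, 11.27 to 11.61 with) and both of Cebpb. None was lower without overlap in the arrays without such genes (0.741%). Split by epidermis genes alone, 3 of the 22 did not overlap and were higher without them (1.48% of varying probe sets): both of Fkbp5 and the dimmer one of Glul. The arrays with other-tissue genes were 3 knockouts and 2 wild types. Single keratins differed among the 4 arrays with epidermis genes. The hair keratins Krt71 (8.89 and 7.90) and Krt27 (9.35 and 8.34) were high in wild types 1 and 3. In knockouts they were at most 6.02 and 5.71. The skin keratin Krt1 was high in knockouts 1 and 4 (7.36 and 7.58). These are examples from 13 listed genes, on too few arrays to be read as a genotype difference. Of the list's varying probe sets 13 were higher and 2 lower in knockouts, none with an unadjusted p under 0.05 in limma. A step added after the data were seen removed the means of the arrays with and without other-tissue genes. The median r of the 45 pairs was then 0.54, with 24 above 0.5 (53.3%, against 16.8% of all pairs) and 8 past the threshold. Fkbp5 with Glul then had r = 0.82. Only 5 arrays were free of these genes, too few for a correlation among them. The part of the other tissues in the co-variation was not tested further.

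**Figure D5:**
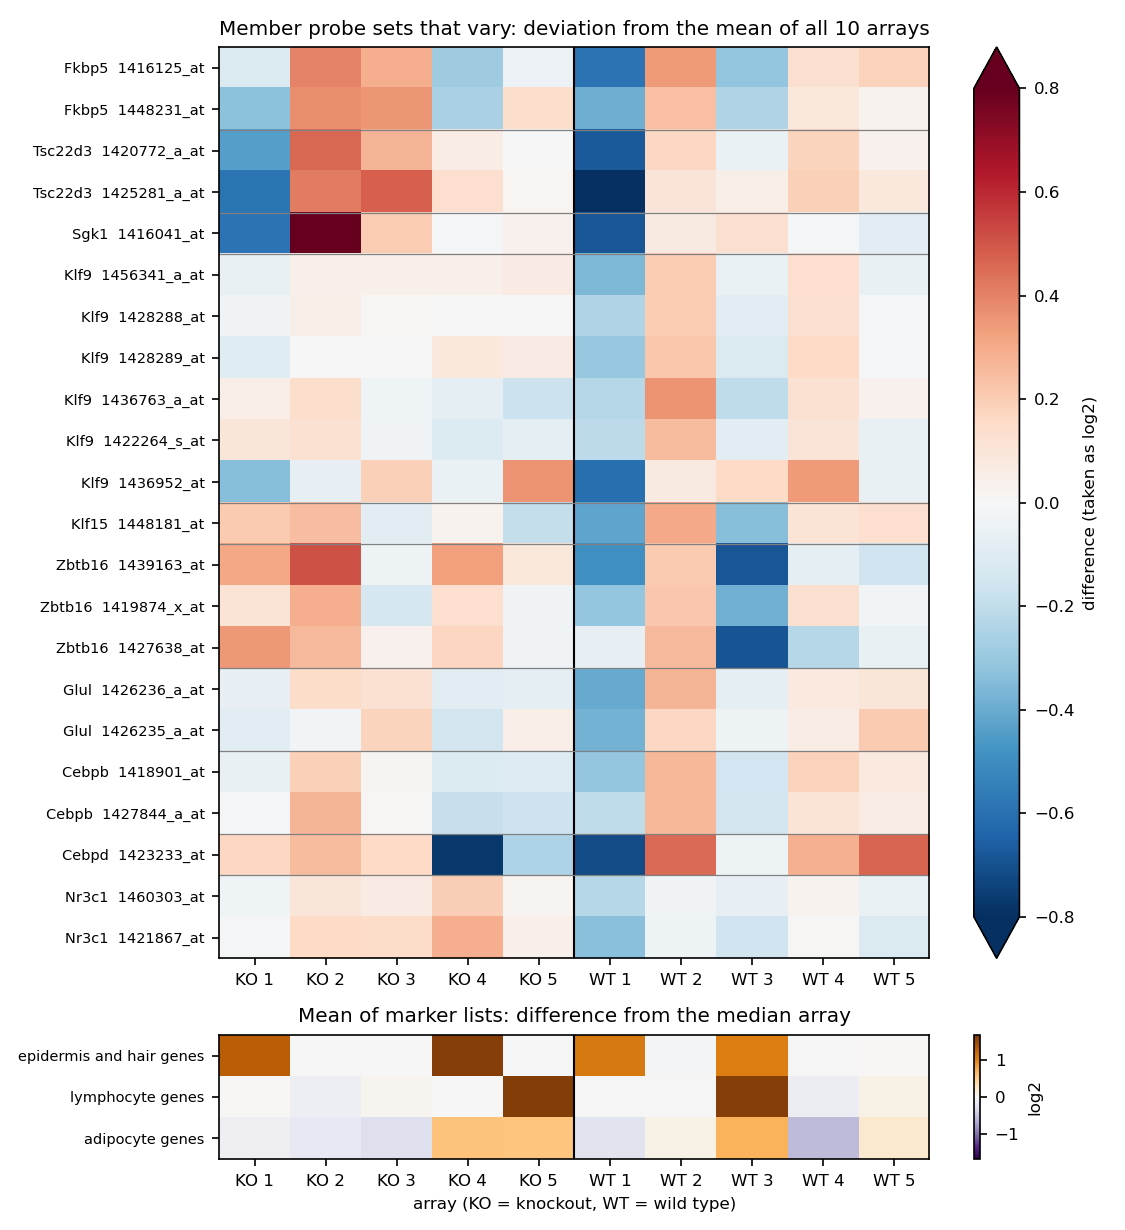
The upper grid shows the deviation of each varying probe set of the 10 genes from its mean over the 10 arrays (rows by gene, columns by array; colour in log2 units, clipped at 0.8 either way), and the lower one the mean of 3 marker lists minus the median array. Wild type 1 is low in nearly every row, knockout 2 and wild type 2 are high, and epidermis genes mark knockouts 1 and 4 and wild types 1 and 3.

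Genes outside the list followed some of the 10 even more closely. After removal of the genotype means the nearest pattern to Fkbp5 was Abcc4, a transporter of cyclic nucleotides and drugs, at r = 0.99 over the 10 arrays, followed by Doc2b at 0.97. Glul was nearest to Fbln2, an extracellular matrix protein (0.99), and Spsb1 (0.97), and Cebpb to Acvr1b, an activin receptor (0.98), and again Abcc4 (0.97). Tsc22d3 was nearest to Gpt2, an alanine aminotransferase (0.96), and Rai14 (0.96). Sgk1 was nearest to the AP-1 subunit Jun (r = 0.97, rho = 0.82) and to Nmb (r = 0.95, rho = 0.73), the lowest rho among the nearest patterns named. These patterns are not given without wild type 1.

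For the remaining factors, Klf9 was nearest to Epm2aip1 (0.97) and Svil (0.95), Klf15 to Sec24a (0.97) and Dnm3 (0.96), and Zbtb16 to Timp3, an inhibitor of metalloproteinases (0.93), and Tns1 (0.91). Cebpd was nearest to Taf7 (0.97) and Rassf4 (0.97). The receptor was nearest to the phosphodiesterase Pde4d (0.93) and the nuclear RNA Malat1 (0.91). These are the highest of 5424 probe sets compared with each gene, of which from 0.977% (receptor) to 4.96% (Glul) had r of at least 0.8.

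The machinery around the receptor (chaperones, the enzymes that make or break active hormone, coregulators) had 18 of 22 listed genes on the array and 11 that varied. Of their 20 varying probe sets 13 were higher and 7 lower in knockouts (49.2% of all varying probe sets were higher). At an unadjusted p under 0.05 in limma 4 of the 20 were higher and 1 lower, where 9.92% of all varying probe sets passed in either direction. The adjusted threshold was passed by 1 (0.966% of varying probe sets). It was 1459804_at, the dimmest varying probe set of Crebbp, the acetyltransferase CBP. It read 6.57 ± 0.05 (SD, n = 5) in knockouts and 5.94 ± 0.10 (SD, n = 5) in wild types without overlap. This was a low level, the wild-type mean lying below the array medians (6.23 to 6.24). The difference was 0.63 ± 0.05 (SE; limma adjusted p = 0.00393). It passed in all 10 fits without 1 array. It did not pass with the replicate number as a block (limma adjusted p = 0.237), though a pairing by that number was not clear. In the 5 arrays without genes of other tissues the difference was 0.60 (limma unadjusted p = 0.0022, adjusted p = 0.785). No probe set at all passed in that fit, so it cannot decide about this one. The other varying probe sets of Crebbp differed by less. For 1436983_at the difference was 0.34 (limma adjusted p = 0.408), for the brightest 0.16 (limma adjusted p = 0.853) and for 1434633_at 0.15 (limma adjusted p = 0.882). Also without overlap and higher in knockouts were 1436983_at and 1418469_at of Nrip1, against 3.37% of varying probe sets. The Nrip1 probe set differed by 0.48 (limma adjusted p = 0.367), but the brightest of that gene by 0.12.

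Other known targets of glucocorticoids, many of them genes of muscle wasting and fuel use, had 29 of 30 genes measured and 25 that varied. Of 52 varying probe sets 31 were higher and 21 lower in knockouts (49.2% of all varying probe sets were higher), with a median difference of 0.06, and none passed the adjusted threshold in limma (4 of 52 had an unadjusted p under 0.05, all of Ppargc1a, where 9.92% of all varying probe sets did). The smallest p values belonged to Ppargc1a, the coactivator of mitochondrial genes, to Cblb, a ubiquitin ligase that targets IRS1, and to Fbxo32, the atrophy ligase atrogin-1. Ppargc1a stood at 8.59 ± 0.80 (SD, n = 5) in knockouts and 7.60 ± 0.20 (SD, n = 5) in wild types, a difference of 0.99 (limma adjusted p = 0.633). Knockout 4, an array with genes of other tissues, was the highest at 9.78. Knockouts 2, 3 and 5 read 8.22, 8.53 and 8.82, and knockout 1 (7.61) lay inside the wild-type range of 7.32 to 7.84. The difference is not given without knockout 4. Cblb differed by 0.37 on 1458469_at (limma adjusted p = 0.787), by 0.27 on its brightest probe set and by 0.04 on another. Fbxo32 differed by 0.19 on its brightest (limma adjusted p = 0.849) and by 0.57 and 0.01 on its others.

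These targets also moved with Fkbp5 over the arrays: 16 of the 25 had an r above 0.5 with it, against 17.1% of all genes with a varying probe set. Without wild type 1 it was 12 of 25, against 11.2%. Examples, chosen after their values were seen, were Errfi1, an inhibitor of EGF receptors (r = 0.89), the metallothionein Mt2 (0.85), Ddit4, an inhibitor of mTORC1 (0.85), and the atrophy factor Foxo3 (0.84). Of the varying machinery genes 3 of 11 had such an r, and 2 of 11 without wild type 1.

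Family relatives of the 10 genes, such as other Klf, Cebp, Tsc22d and Zbtb genes, had 20 of 22 genes measured, 14 that varied and none past the threshold in limma (3 of 32 varying probe sets had an unadjusted p under 0.05, against 9.92% of all varying probe sets). Of the 32 varying probe sets 23 were higher and 9 lower in knockouts, where 49.2% of all varying probe sets were higher. The genes with the smallest p were Zbtb7a, Klf7 and Zbtb20. Zbtb7a differed by 0.38 (limma adjusted p = 0.119). Klf7 differed by −0.26 on its dimmer probe set (limma adjusted p = 0.742) and by −0.07 on its brightest. Zbtb20 differed by 0.28 on 1443471_at (limma adjusted p = 0.752), but by −0.04 on its brightest, and its other varying probe sets lay between −0.06 and 0.10. With Fkbp5, 9 of the 14 had an r above 0.5 (17.1% of all genes with a varying probe set), and 5 of 14 without wild type 1 (11.2%).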

How the data were processed

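Total RNA (100 ng, extracted with Trizol and a column) was labelled with a 3′ IVT kit, per the labels' protocols, and each sample was read on 1 array. The authors deposited 1 table of values per probe set, taken as log2 from their range (4.93 to 13.96); summarization and normalization are not stated in the sources used, and the values were not normalized further. Of 45101 rows 64 controls were left out. Gene names are those of the platform annotation after an update by a RefSeq table. Probe sets of several genes were not used for the 10 genes.

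The comparison of genotypes used limma 3.58.1 under R 4.3.3 (lmFit, eBayes without trend, no covariate), with Benjamini-Hochberg adjustment over all 45037 probe sets at 0.05. Exact two-sided permutation tests over the arrays stand beside single values. Correlations used 100000 permutations, or all 362880 orders of 9 arrays, adjusted over the 45 pairs. Calculations and figures used Python 3.11.15, pandas 2.3.3, numpy 2.4.6, scipy 1.17.1 and matplotlib 3.10.9. The limma fit was tested on simulated data.

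The genes and lists were chosen with earlier results of these data known. All 10 genes were named. Each was represented by its brightest probe set with an SD above 0.01. Other lists named genes past the threshold or otherwise the 3 with the smallest p that varied, and 2 nearest patterns were named per gene. The labels call the arrays biological replicates. Their number, 5 per genotype, limits precision.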

Additional observations from a re-analysis of the deposited data

Results flagged for a closer look

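In 3 of 20 groups of 5 arrays, 1 array stood apart by Dixon's criterion, where chance gives about 1 group in 20. Tsc22d3 in wild type 1 was 10.49, with the next wild type at 11.10. Sgk1 in wild type 1 was 10.63, with the next at 11.23. Klf9 in knockout 1 was 12.45, with the next knockout at 12.55, a small gap in a group with little spread.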

How the results depend on the processing

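No probe set of the 10 genes passed the adjusted threshold in any of 20 alternatives. Over all probe sets 86 passed, against 43 after quantile normalization, 143 with varying probe sets alone, 5 with the brightest probe set per gene, 29 with the mean per gene, 0 without the 5 arrays carrying other tissues (limma; 2672 at an unadjusted p under 0.05) and 31 to 57 with 1 array left out. With the replicate block 5 passed. A pairing by replicate number was not clear: correlations of same-numbered deviations ran from −0.40 to 0.32, and 2 of 5 knockouts matched their own number best. With 5 pairs of numbers this check cannot exclude a pairing.

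Differences near 0 changed sign. Glul was −0.027 with array weights. Without the other-tissue arrays Glul was −0.017, Klf9 −0.054 and Klf15 −0.10. With 1 array left out the ranges were −0.086 to 0.082 for Glul, −0.036 to 0.20 for Fkbp5, −0.012 to 0.27 for Tsc22d3, −0.033 to 0.11 for Klf9, −0.0094 to 0.17 for Klf15 and −0.11 to 0.037 for Cebpb. The cause was not tested. Sgk1, Zbtb16, Cebpd and Nr3c1 kept their direction in all 20, but with 1 array left out Sgk1 ran from 0.024 to 0.41 and Cebpd from −0.38 to −0.0069.

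Of the 45 correlated pairs 18 passed the threshold over all arrays, 8 with the other-tissue arrays as a term and 2 to 23 with 1 array left out, where the median r ranged from 0.41 to 0.76. Correlations without the other-tissue arrays were not run, as 5 arrays remained.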
